A study of Drosophila melanogaster with 6 samples.

Results

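Adult muscle precursors are myoblasts that lie beneath the notum epithelium of the *Drosophila* wing imaginal disc and later build the flight muscles. They were followed here through 10 genes chosen by symbol: *twi*, *Mef2*, *Him*, *zfh1*, *ct* and *nau*, which act in transcription, and *kirre*, *sns*, *mbc* and *rols*, which act in adhesion and fusion. All 10 were found among the 17478 genes of the count table, and all 10 passed the filter on low counts, with 9408 genes tested in all. The rule uses no measured value. PolyA+ RNA was sequenced from whole wing discs of female larvae of the third instar, in 3 samples of *UAS-CycGΔP, da-Gal4/+* larvae (CycGΔP discs) and 3 samples of *da-Gal4/+* larvae (control discs). Both groups therefore carry the *da-Gal4* driver, which works throughout the larva, myoblasts included, and CycGΔP discs also carry a transgene for Cyclin G without its PEST domain. The study's methods write the first genotype as *da-Gal4/UAS-CycGΔP*. They state that 150 discs were pooled per sample and that the replicates came from independent crosses. The comparison asks how RNA levels of these genes differ between discs that express CycGΔP and discs that carry the driver alone.

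In the third instar the precursors divide and stay undifferentiated. The Twist transcription factor, Notch signalling and the repressors Him and Zfh1 hold back muscle differentiation, whereas Mef2 promotes it. Fusion follows in the pupa, when receptors of the immunoglobulin family on founder cells (Kirre and Roughest) meet Sticks and stones on fusion-competent myoblasts, and adaptors such as Rols and Mbc pass the signal to Rac and actin. Several of these genes are also used outside muscle. Cut marks the wing margin and sensory organs, Zfh1 works in haemocyte development, and Mbc, Rac and the actin regulators act in many epithelia. The counts come from whole discs, so a lower share of myoblasts and less RNA per myoblast cannot be told apart.

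No gene of the 10 passed the test between CycGΔP and control discs. With edgeR's quasi-likelihood test and Benjamini-Hochberg adjustment over all tested genes, 0 of 10 had an adjusted p-value under 0.05, beside 1.42% of all tested genes (134 of 9408). At an unadjusted p-value under 0.05 the count was 1 of 10 (*kirre*), beside 14.7% of all tested genes. DESeq2 and limma voom also called 0 of 10, beside 5.79% and 1.46% of the genes they gave an adjusted p-value. The log2 fold change was above 0 for 8 genes and below 0 for 2, from −0.11 (*twi*) to 0.54 (*ct*), with a median of 0.16 beside 0.012 over all tested genes. CycGΔP and control libraries were fully separated for 1 gene, with CycGΔP above, beside 22% of all tested genes in either direction and 9.98% with CycGΔP above. The 95% interval lay wholly within 1.5-fold in either direction for 5 genes (*twi*, *Mef2*, *Him*, *mbc* and *rols*), and for 60.7% of all tested genes. For the other 5 genes a difference of 1.5-fold or more remained within the interval.

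**Figure D1:**
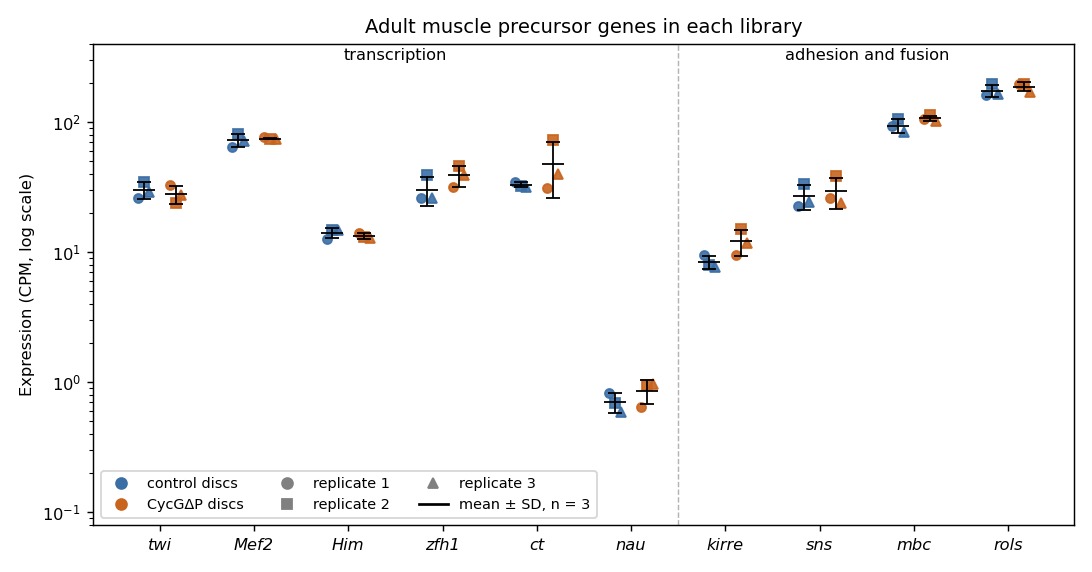
Expression of each gene in each library, in CPM (counts scaled by the TMM-adjusted library total) on a log axis. Points are libraries, with shape giving the replicate, and black bars are the mean ± SD of 3 libraries. The groups overlap for every gene but *kirre*, where the lowest CycGΔP value (9.60) lies just above the highest control value (9.56), and *ct* is high in CycGΔP replicate 2 (73.0).

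The deposited counts summed to between 21853360 and 40059450 per library. Expression is given as CPM, that is counts divided by the TMM-adjusted library total and multiplied by 1000000. Where 3 values are given for a group, they are those of replicates 1, 2 and 3 in this order. Excluding *nau*, each gene had at least 221 reads in every library. The normalization factors lay between 0.963 and 1.03. The biological coefficient of variation lay between 11.1% (*Mef2*) and 36.0% (*nau*) for the 10 genes. *CycG* itself, the targeted gene, had 900 to 1022 CPM in CycGΔP libraries and 686 to 788 CPM in control libraries (log2 fold change 0.42, edgeR adjusted p-value 0.0909). These counts do not separate transgene from endogenous RNA, and by RT-qPCR the study found less endogenous *CycG* RNA in CycGΔP discs. Epithelial genes of pouch and notum were expressed in every library, with 230 to 284 CPM of the pouch gene *nub* and 39.2 to 54.2 CPM of the notum gene *pnr*.

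In control discs the genes differed widely in level. Levels were compared between genes per kilobase of annotated exon, over which alternative exons of a gene were merged. *rols*, the founder-cell adaptor, was highest, with 23.2 ± 2.60 CPM per kb (SD, n = 3), which is at the 65.3 percentile of all tested genes on this scale. It was followed by *Him* (15.3 ± 1.40), *mbc* (12.7 ± 1.5), *twi* (12.6 ± 1.82) and *Mef2* (7.89 ± 0.911 CPM per kb). *zfh1* (4.39 ± 1.10), *sns* (3.09 ± 0.672) and *ct* (2.66 ± 0.124 CPM per kb) came next. The lowest were *kirre* (1.07 ± 0.127) and *nau* (0.459 ± 0.0786 CPM per kb), the latter at the 9.15 percentile. In this order the control libraries of neighbouring genes overlapped for *Him* and *mbc*, *mbc* and *twi*, *zfh1* and *sns*, and *sns* and *ct*, and did not overlap for the other 5 pairs of neighbours.

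**Figure D2:**
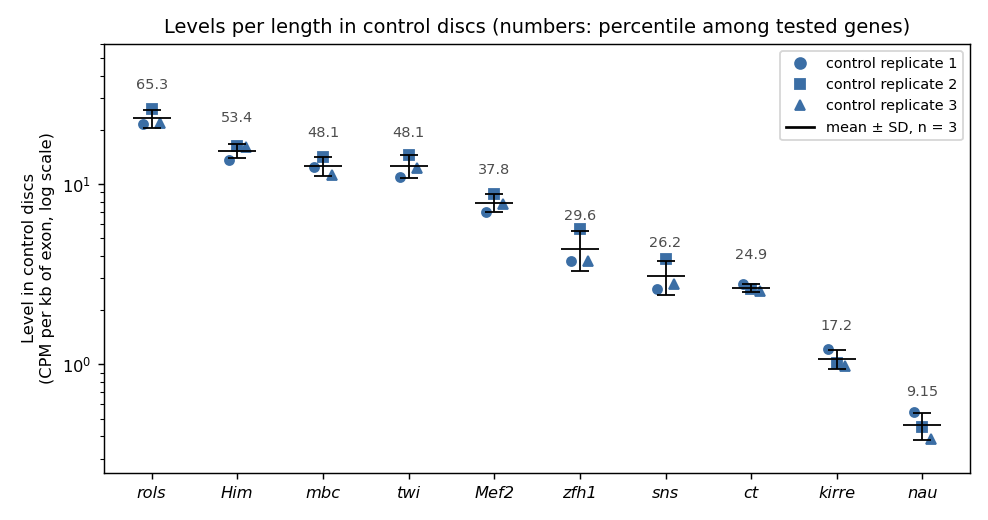
Level of each gene in the 3 control libraries, in CPM per kb of exon on a log axis, ordered from high to low. Bars are the mean ± SD and the number above each gene is its percentile among all tested genes, from 65.3 for *rols* to 9.15 for *nau*.

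Among the transcription genes, the difference between the groups was under 1.5-fold over the whole 95% interval for *twi*, *Mef2* and *Him*. The intervals of *zfh1*, *ct* and *nau* reached past 1.5-fold. *twi* (FBgn0003900, 2R, from 22985374 to 23048325, plus strand of dm6) encodes the basic helix-loop-helix factor that specifies mesoderm and keeps these cells undifferentiated. It had 32.7, 23.9 and 27.4 CPM in CycGΔP discs and 26.3, 34.9 and 29.3 CPM in control discs. The highest and the lowest value both belonged to a replicate 2, of control and of CycGΔP discs, and the groups overlapped. This gave a log2 fold change of −0.11 (standard error 0.148, 95% interval −0.46 to 0.25, edgeR adjusted p-value 0.767). Of the annotated *twi* exons, 12.2% of bases are shared with other genes (*CG9897* on the other strand and an antisense RNA gene annotated on the strand of *twi*), so reads in these stretches may be missing or shared.

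*Mef2* (FBgn0011656, 2R, from 9913496 to 9958858, minus strand) encodes the MADS-box factor that turns on muscle differentiation genes. Its expression was 76.4, 74.8 and 73.8 CPM in CycGΔP discs. In control discs it was 64.7, 81.3 and 71.4 CPM, so the 3 CycGΔP values lay within the control range. On the log2 scale the difference was 0.049 (standard error 0.0947, 95% interval −0.18 to 0.28, edgeR adjusted p-value 0.839), which is 1.03-fold with an interval from 0.885 to 1.21. Its sign turned to −0.045 without control replicate 1.

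*Him* (FBgn0030900, X, from 18209427 to 18210741, plus strand) encodes a repressor that blocks Mef2 activity in precursors and is lost as they differentiate. It had 14.1, 13.1 and 12.9 CPM in CycGΔP discs against 12.6, 14.9 and 14.7 CPM in control discs. It was the steadiest of the 10 genes, with the highest library only 1.18 times the lowest. Fitted by edgeR, the log2 fold change was −0.077 (standard error 0.101, 95% interval −0.32 to 0.16, edgeR adjusted p-value 0.753). A change beyond 0.802-fold or 1.12-fold lay outside the interval.

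*twi*, *Mef2* and *Him* together also kept a steady proportion to the summed CPM of the listed notum genes. This ratio was chosen after the values were seen and carries no test. The 9 notum genes (*pnr*, *ush*, *eyg*, *toe*, *tup*, *sr*, *ara*, *caup* and *mirr*, transcription factors and a cofactor that pattern the notum) summed to between 602 and 745 CPM per library. *twi*, *Mef2* and *Him* together summed to 17.1, 17.6 and 17.7% of this notum sum in CycGΔP discs. In control discs the value was 17.2, 17.6 and 17.6%. The lowest and highest of the 6 libraries thus differed by 1.04 times, although the summed CPM of the 3 genes itself ran from 104 in control replicate 1 to 131 in control replicate 2. Taken singly the ratio varied more, by 1.25 times for *twi*, 1.11 times for *Mef2* and 1.15 times for *Him*. For the rest of the 10 genes it varied by between 1.23 times (*rols*) and 2.64 times (*ct*). *caup*, *mirr* and *ara* were highest among the notum genes, with means of 159, 144 and 119 CPM in control discs, and so weighed most in the sum. Expression of the notum genes in other parts of the disc was not tested, so the ratio is not a count of myoblasts per notum cell.

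*zfh1* (FBgn0004606, 3R, from 30765926 to 30789202, plus strand), a zinc finger and homeodomain repressor that keeps precursors from differentiating, was higher on average in CycGΔP discs without passing the test. It had 31.8, 46.3 and 39.1 CPM in CycGΔP discs and 26.0, 39.1 and 26.0 CPM in control discs. Control replicate 2 reached the level of CycGΔP replicate 3, so the groups overlapped. The log2 fold change was 0.36 (standard error 0.209, 95% interval −0.15 to 0.87, edgeR adjusted p-value 0.471). It was 0.22 without CycGΔP replicate 2, 0.24 without control replicate 1 and 0.57 without control replicate 2, with edgeR adjusted p-values of 0.790, 0.632 and 0.298. Against the summed notum genes, *zfh1* varied by 1.84 times between libraries. Of its exon bases, 4.56% are shared with an antisense RNA gene.

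Haemocyte genes differed between the same libraries, and their part in the *zfh1* values was not tested. The 8 listed haemocyte genes summed to 78.8, 224 and 213 CPM in CycGΔP discs and to 124, 172 and 105 CPM in control discs. *Hml* (Hemolectin) alone had 11.8, 103 and 61.4 CPM against 32.3, 52.8 and 25.7 CPM. CycGΔP replicates 2 and 3 and control replicate 2 were thus the 3 highest libraries both for *zfh1* and for the haemocyte sum, while CycGΔP replicate 1 had the lowest haemocyte sum and the fourth highest *zfh1* level. None of the 8 haemocyte genes was at 0 in any library, and 0 of 8 passed the edgeR test, also at an unadjusted p-value under 0.05. Over all tested genes these shares were 1.42% and 14.7%. *He*, *NimC1* and *srp* had log2 fold changes of 1.26, 1.17 and 1.05, and *crq*, the highest of the list in CPM in control discs, −0.18.

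*ct* (FBgn0004198, X, from 7608428 to 7678859, plus strand) encodes the homeodomain protein Cut, which is high in myoblasts of the direct flight muscles and low in those of the indirect flight muscles. It had the largest log2 fold change of the 10 genes, and this rested on 1 library. Its expression was 31.3, 73.0 and 39.8 CPM in CycGΔP discs, and 34.8, 32.4 and 32.0 CPM in control discs. CycGΔP replicate 1 was the lowest of all 6 libraries and CycGΔP replicate 2 the highest. This gave a log2 fold change of 0.54 (standard error 0.310, 95% interval −0.22 to 1.30, edgeR adjusted p-value 0.475), and it was 0.10 without CycGΔP replicate 2. The SD was 22.0 CPM in CycGΔP discs and 1.54 CPM in control discs.

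The neuronal gene *elav*, which encodes an RNA-binding protein of neurons, was also highest in CycGΔP replicate 2. It had 28.8, 56.0 and 33.4 CPM in CycGΔP discs and 35.2, 36.1 and 34.3 CPM in control discs. *brp*, a gene of the presynaptic active zone, was also highest there, at 0.0245 to 0.760 CPM over the 6 libraries. It had few reads, with 16 in CycGΔP replicate 2 and 15 in CycGΔP replicate 3. *nSyb* of the same list was instead highest in CycGΔP replicate 3, with 1.26 CPM against 0.713 CPM in CycGΔP replicate 2. *nrv2*, the highest of the list in CPM in control discs, was lowest in CycGΔP replicate 2 (192 CPM). The glial gene *repo* had 7 to 19 reads per library. Over the 6 genes of the list the sum ran from 237 to 259 CPM in CycGΔP and from 247 to 260 CPM in control libraries. Most of this sum was *nrv2*, at 192 to 213 CPM over the 6 libraries, so it says little about the other genes. None of the 6 was at 0 in any library, and of the 5 tested none passed the edgeR test. At an unadjusted p-value under 0.05 there was 1, *moody*, with a log2 fold change of −0.26. Over all tested genes these shares were 1.42% and 14.7%. The part of neural cells in the *ct* values was not tested.

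*nau* (FBgn0002922, 3R, from 23712814 to 23718357, minus strand), the only MyoD family gene of the fly, was barely expressed. It had 17, 20 and 28 reads in CycGΔP discs and 26, 28 and 17 reads in control discs. This is 0.592 to 0.977 CPM over the 6 libraries, with the groups overlapping. On the log2 scale the difference was 0.28 (standard error 0.345, 95% interval −0.54 to 1.11, edgeR adjusted p-value 0.736). A 2.16-fold rise and a fall to 0.687-fold both lay within the interval. Of the exon bases of *nau*, 26.4% are shared with *CG10300* on the other strand, which adds to the uncertainty of these few reads.

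**Figure D3:**
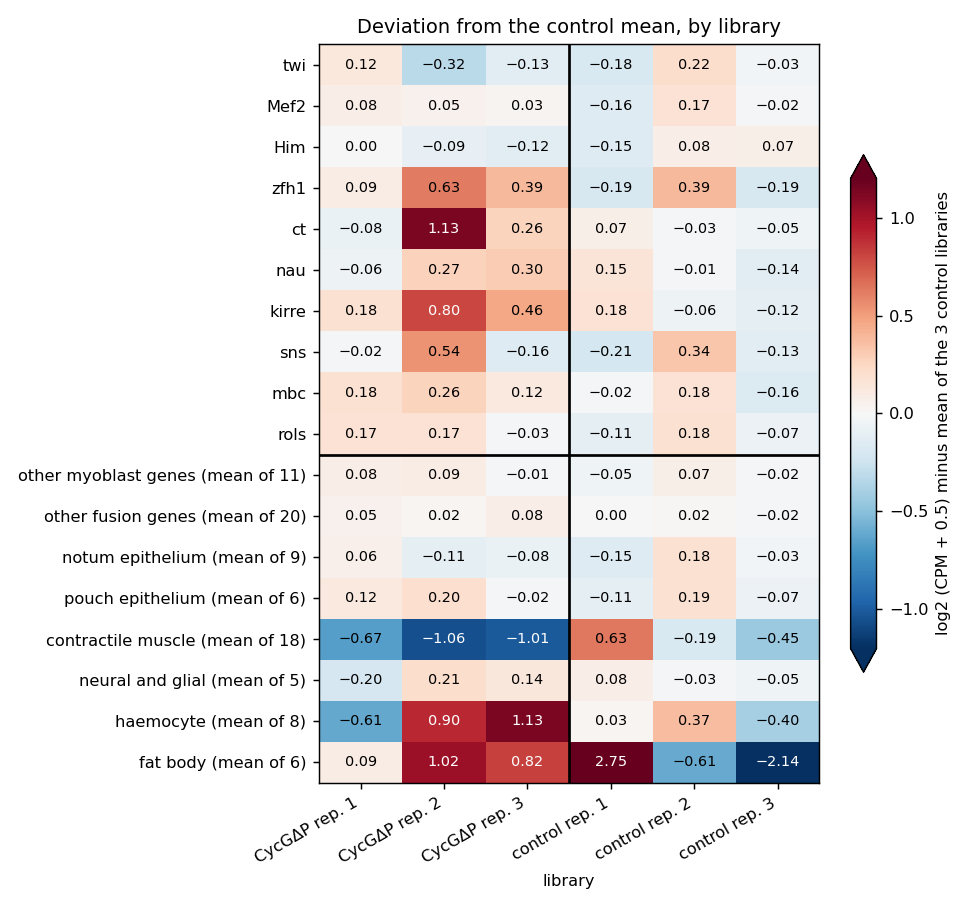
Deviation of each library from the mean of the 3 control libraries, in log2 (CPM + 0.5), for each of the 10 genes (top) and as the mean over the tested genes of other lists (bottom). *Him* varies least between libraries, *ct*, *kirre*, *zfh1* and *sns* are highest in CycGΔP replicate 2, contractile genes are low in all CycGΔP libraries, and fat body genes are high in control replicate 1.

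Among the receptors, *kirre* (FBgn0028369, X, from 2740384 to 3134532, plus strand) was the only one of the 10 genes whose groups did not overlap. It encodes the founder-cell receptor also called Dumbfounded. It had 9.60, 15.0 and 11.7 CPM in CycGΔP discs, and 9.56, 8.03 and 7.70 CPM in control discs. The groups nearly touched, and before TMM normalization CycGΔP replicate 1 (9.38 CPM) lay below control replicate 1 (9.65 CPM). Fitted by edgeR, the log2 fold change was 0.52 (standard error 0.186, 95% interval 0.078 to 0.97, unadjusted p-value 0.0277, edgeR adjusted p-value 0.257). DESeq2 gave an adjusted p-value of 0.198, and over 13 alternatives the adjusted p-value ranged from 0.148 to 0.513. Without CycGΔP replicate 2 the log2 fold change was 0.34.

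The *kirre* locus holds the *white* gene. *w* (X, from 2790599 to 2796466, minus strand) lies inside the 394149 bases that *kirre* spans, and its expression was 887, 732 and 707 CPM in CycGΔP discs against 1.5, 1.03 and 0.801 CPM in control discs. In the annotation used here the exons of *kirre* share 0 bases with those of *w* or any other gene. Whether this *w* RNA was made at the X locus or elsewhere in the genome was not tested, nor was its part in the *kirre* counts. Of 22 counted genes inside the span 6 were tested. *w* was called, and 0 of the other 5 passed the edgeR test, beside 1.42% of all tested genes. At an unadjusted p-value under 0.05 there were 3 of the 6, *w* included, beside 14.7% of all tested genes.

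*rst* (X, from 2950399 to 2973834, minus strand), which also lies inside this span, encodes the receptor Roughest, a close relative of Kirre that can replace it in founder cells. It had 70.6, 97.2 and 66.0 CPM in CycGΔP discs and 62.0, 62.3 and 57.1 CPM in control discs. As for *kirre*, CycGΔP replicate 2 was highest and the groups did not overlap. The log2 fold change was 0.37 (standard error 0.151, 95% interval 0.0038 to 0.73, unadjusted p-value 0.0482, edgeR adjusted p-value 0.335), which did not pass the threshold.

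*sns* (FBgn0024189, 2R, from 8798489 to 8856091, plus strand), the receptor of fusion-competent myoblasts, differed more between replicates than between groups. It had 26.2, 38.7 and 23.7 CPM in CycGΔP discs and 22.9, 33.6 and 24.2 CPM in control discs. Replicate 2 was highest in both groups. This gave a log2 fold change of 0.13 (standard error 0.230, 95% interval −0.42 to 0.69, edgeR adjusted p-value 0.819), and it was −0.11 without CycGΔP replicate 2.

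The adaptor genes varied little between libraries, by 1.35 times for *mbc* and 1.22 times for *rols*. *mbc* (FBgn0015513, 3R, from 23781765 to 23801634, plus strand) encodes Myoblast city, an exchange factor for Rac that works with Ced-12. It had 106, 113 and 102 CPM in CycGΔP discs and 92.9, 106 and 84.0 CPM in control discs, with control replicate 2 inside the CycGΔP range. On the log2 scale the difference was 0.18 (standard error 0.102, 95% interval −0.061 to 0.42, edgeR adjusted p-value 0.456).

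*rols* (FBgn0041096, 3L, from 12008225 to 12064859, minus strand) encodes the founder-cell scaffold Rolling pebbles, which links Kirre to Mbc. It had 197, 197 and 171 CPM in CycGΔP discs and 162, 198 and 166 CPM in control discs. The highest of the 6 values was that of control replicate 2. Fitted by edgeR, the log2 fold change was 0.10 (standard error 0.105, 95% interval −0.15 to 0.35, edgeR adjusted p-value 0.676).

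Over the 10 genes, replicate 2 of one or the other group held 9 of the 10 highest values. CycGΔP replicate 2 was the highest library for 5 genes (*zfh1*, *ct*, *kirre*, *sns* and *mbc*) and the lowest for *twi*. Control replicate 2 was highest for 4 (*twi*, *Mef2*, *Him* and *rols*), and control replicate 1 was lowest for 5. The mean log2 deviation of the 10 genes from the control mean was 0.068, 0.34 and 0.11 in CycGΔP discs. It was −0.061, 0.14 and −0.083 in control discs, so the groups overlapped. Control replicate 1 carried the most fat body RNA, with the 6 listed fat body genes (*Lsp1* genes, *Lsp2*, *Fbp1* and *Fbp2*) at 22240 CPM, against 718 and 2167 CPM in the other control libraries and 4596 to 7556 CPM in CycGΔP libraries. No fat body gene passed the edgeR test (0 of 6, and 0 at an unadjusted p-value under 0.05), beside 1.42% and 14.7% of all tested genes. *Fbp1* was highest in CPM, and *Lsp1gamma*, *Lsp1alpha* and *Lsp1beta* had log2 fold changes of −1.50, −1.27 and −0.81. The part of fat body RNA in the values of the 10 genes was not tested. Without control replicate 1 the median log2 fold change of the 10 genes was 0.091, and 0 of 10 passed the edgeR test, beside 78 of all 9605 genes tested in that fit. With 1 library left out at a time, the log2 fold change of *twi* ranged from −0.24 to −0.0065, that of *Him* from −0.17 to −0.046, that of *rols* from 0.030 to 0.18, that of *mbc* from 0.10 to 0.26 and that of *nau* from 0.17 to 0.45.

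Of 13 further myoblast genes 11 were tested and 0 passed the edgeR test, beside 1.42% of all tested genes. At an unadjusted p-value under 0.05 the count was 1 (*SPARC*), beside 14.7%. Limma voom called 0 and DESeq2 1, beside 1.46% and 5.79% of the genes they gave an adjusted p-value. The groups were fully separated for 3 genes with CycGΔP above and 2 with CycGΔP below, beside 9.98% and 12.1% of all tested genes. The median log2 fold change was 0.12, with 9 genes above 0 and 2 below. *htl*, which encodes the FGF receptor of the precursors, had 40.7, 44.5 and 42.9 CPM in CycGΔP discs and 36.8, 40.3 and 39.0 CPM in control discs (log2 fold change 0.14, edgeR adjusted p-value 0.382). Its ligand gene *ths* (Thisbe), made by the epithelium, had a log2 fold change of 0.36 (edgeR adjusted p-value 0.374) and its adaptor *stumps* 0.11. *Ama*, which encodes a secreted immunoglobulin-domain protein abundant in precursors, had 351 to 375 CPM in CycGΔP and 325 to 345 CPM in control libraries (log2 fold change 0.11, edgeR adjusted p-value 0.481). *E(spl)m6-BFM*, a Notch target in these cells, had 17.4 to 17.5 CPM against 18.0 to 20.3 CPM (log2 fold change −0.13, edgeR adjusted p-value 0.471).

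Genes that tell precursor subtypes apart did not pass either. *vg* (Vestigial), which is high in precursors of the indirect flight muscles and in the wing pouch, had 186, 196 and 174 CPM in CycGΔP discs and 169, 203 and 172 CPM in control discs. Its log2 fold change was 0.031 (95% interval −0.20 to 0.26, edgeR adjusted p-value 0.908). *ap* and *lms*, homeobox genes of the direct flight muscles (the first also the dorsal selector of the epithelium), had log2 fold changes of 0.15 and 0.32, with edgeR adjusted p-values of 0.362 and 0.568. *sd*, which encodes the DNA-binding partner of Vestigial and had the highest CPM of the list in control discs, had 0.13. *lmd*, which specifies fusion-competent myoblasts in the embryo, had at most 2 reads in any library, and *Hand*, a gene of the circulatory system, at most 21. Neither was tested.

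*SPARC* had the largest difference of this list. It encodes a collagen-binding glycoprotein made by precursors and also by haemocytes and fat body. It had 47.8, 44.7 and 37.0 CPM in CycGΔP discs and 65.4, 83.6 and 61.5 CPM in control discs. All 3 CycGΔP values lay below all 3 control values. The log2 fold change was −0.70 (standard error 0.148, 95% interval −1.05 to −0.35, edgeR adjusted p-value 0.0916), which did not pass, whereas DESeq2 gave an adjusted p-value of 0.000757. The part of haemocyte and fat body RNA in the *SPARC* values was not tested.

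**Figure D4:**
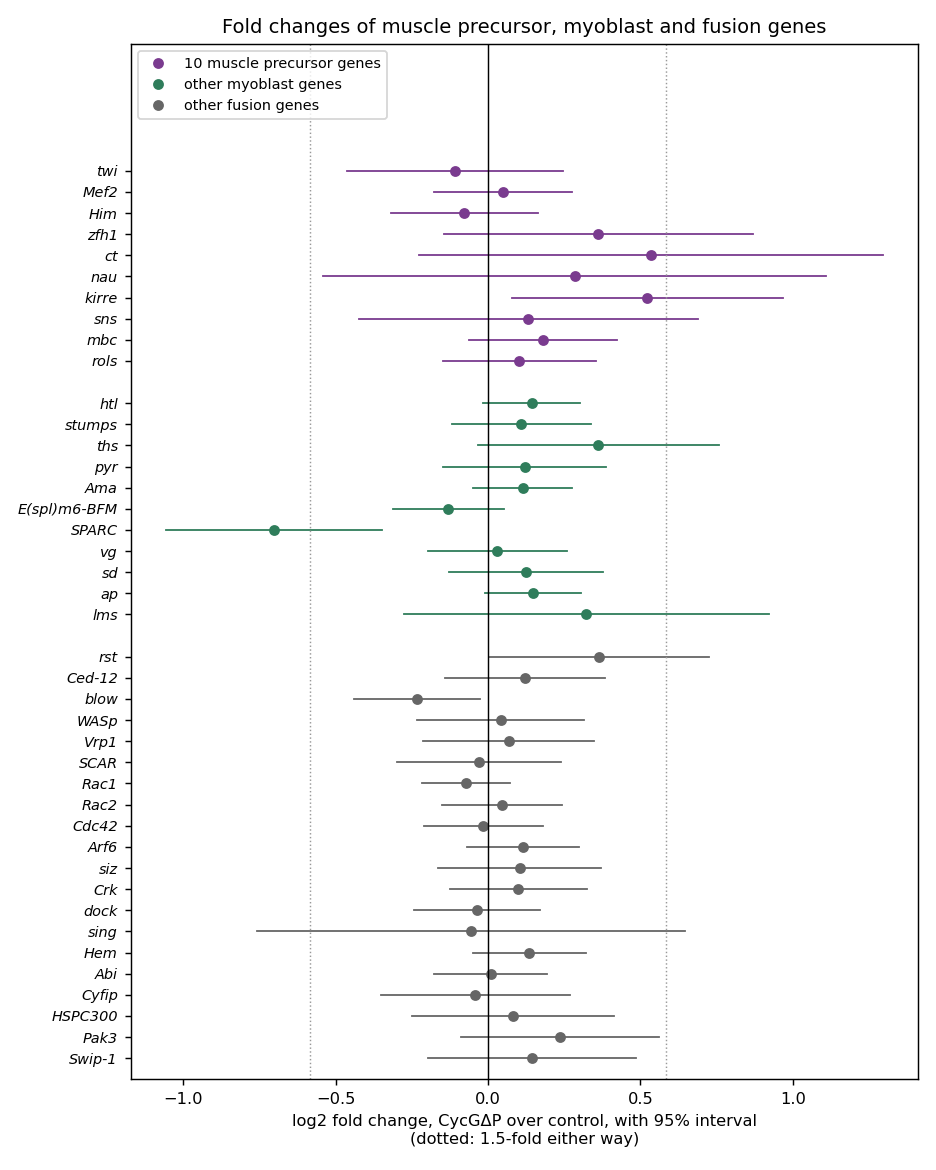
Log2 fold change of CycGΔP over control discs with its 95% interval from the edgeR fit, for the 10 genes, 11 further myoblast genes and 20 further fusion genes that were tested. Dotted lines mark 1.5-fold in either direction. Intervals reach past 1.5-fold for *zfh1*, *ct*, *kirre*, *sns* and *nau* among the 10 genes, and *SPARC* lies furthest from 0, at −0.70.

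Of the remaining fusion machinery, 20 genes were tested and 0 passed the edgeR test, beside 1.42% of all tested genes. At an unadjusted p-value under 0.05 the count was 2 (*rst* and *blow*), beside 14.7%. DESeq2 and limma voom called 0, beside 5.79% and 1.46% of the genes they gave an adjusted p-value. The groups were fully separated for 2 genes with CycGΔP above and 2 with CycGΔP below, beside 9.98% and 12.1% of all tested genes. The median log2 fold change was 0.057, with 13 genes above 0 and 7 below. *blow* (Blown fuse), which acts on actin at the fusion site, had 164, 136 and 143 CPM in CycGΔP discs and 169, 177 and 174 CPM in control discs (log2 fold change −0.23, edgeR adjusted p-value 0.277). Its groups did not overlap, with CycGΔP below. *Pak3*, a kinase downstream of Rac and Cdc42, had a log2 fold change of 0.24 (edgeR adjusted p-value 0.467). *Ced-12*, the partner of Mbc, had 0.12. Genes of the SCAR complex (*SCAR*, *Hem*, *Abi*, *Cyfip* and *HSPC300*) lay between −0.042 and 0.14. *Cdc42* had the highest CPM of the list in control discs, 331, and had a log2 fold change of −0.015. *sing* (Singles bar), a membrane protein of fusing myoblasts, had 27 to 43 reads per library.

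Of 18 tested contractile genes, which mark larval or differentiated muscle, 1 fell in CycGΔP discs by the edgeR test. Over all tested genes 0.733% were called down and 1.42% in either direction. The gene that fell was *Mhc*, which encodes muscle myosin heavy chain. The others did not pass, with 9 genes in all at an unadjusted p-value under 0.05, beside 14.7% of all tested genes. DESeq2 called 9 of the list, beside 5.79% of all genes it gave an adjusted p-value, and limma voom called 0, beside 1.46%. Its median log2 fold change was −1.33, with 16 genes below 0, and 9 genes lay below control in every CycGΔP library, beside 12.1% of all tested genes. *Mhc* had 5.95, 4.80 and 4.19 CPM in CycGΔP discs and 39.5, 18.6 and 17.7 CPM in control discs (log2 fold change −2.34, edgeR adjusted p-value 0.0449). *Mlc1* and *Prm* had log2 fold changes of −2.34 and −1.86 (edgeR adjusted p-values 0.0776 and 0.238), and *Zasp52*, the highest of the list in CPM in control discs, −0.021. Control replicate 1 had the highest summed contractile level (636 CPM, against 390 and 481 CPM in the other control libraries and 321 to 402 CPM in CycGΔP libraries). Without it the list's median was −0.69 and *Mhc* was still called (log2 fold change −1.88, edgeR adjusted p-value 0.0172). *fln*, an indirect flight muscle gene, was at 0 in all 6 libraries. The difference between contractile and precursor genes was not tested, nor was the part of larval muscle in the contractile values.

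No listed gene of the surrounding tissues passed the edgeR test, and DESeq2 and limma voom called 0 in the notum, pouch, tracheal, haemocyte, fat body and neural lists. Over all genes given an adjusted p-value, the shares called were 1.42% (edgeR), 5.79% (DESeq2) and 1.46% (limma voom). An unadjusted edgeR p-value under 0.05 was found for 14.7% of all tested genes. Of 9 notum genes 0 passed the edgeR test, also at an unadjusted p-value under 0.05, with a median log2 fold change of −0.11. *eyg*, *tup* and *ara* had −0.21, −0.18 and 0.13, and *caup*, the highest in CPM in control discs, 0.12. Of 6 wing pouch genes 0 passed, with 1 at an unadjusted p-value under 0.05 (*pdm2*, 0.28) and a median of 0.096. *salm*, *bi* and *nub* had 0.18, 0.12 and 0.072. For 5 tracheal genes, which mark the air sac primordium that grows over the precursors but are active in other disc cells too, 0 passed, also at an unadjusted p-value under 0.05, with a median of 0.083. *vvl*, *serp* and *verm* had 0.26, 0.23 and 0.083.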

How the data were processed

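Counts per gene were deposited without normalization. According to the study's methods and the submitters' processing notes, the authors aligned 50 bp single reads to dm6 with TopHat2 2.0.10 and assigned reads with a single mapping to Ensembl genes through summarizeOverlaps. The kit was stranded, but a strand setting for the counting is not given in the sources used here, so genes with shared exon bases are uncertain. Size-factor-normalized values and ChIP-seq data were not used here.

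Totals ranged from 21853360 to 40059450 counts. The genotype and number of each sample were taken from its label. The test was edgeR 4.0.16 under R 4.3.3 (TMM, expression filter by group, robust quasi-likelihood fit on genotype alone, Benjamini-Hochberg at 0.05 over 9408 genes). Standard errors were taken as the log2 fold change over the root of F, and 95% intervals from its t distribution. Coverage of the intervals was checked only on counts simulated with trended dispersions, which lack the gene-specific spread of the real data. Symbols, coordinates and exon lengths came from Ensembl release 115 on dm6, in which 17219 of 17478 identifiers were found. This is newer than the annotation counted, which can alter the levels per kb.

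The 10 genes and all lists were chosen with earlier results of these data known. Lists covered further myoblast genes, fusion machinery, contractile, notum, pouch, tracheal, haemocyte, fat body, and neural and glial genes. *hbs*, *btl* and *esg* were not analysed here. From each list were named the genes that passed, the 3 with the largest absolute log2 fold change at a mean of at least 1 CPM, and the highest in CPM in control discs. Other genes, ratios and leave-outs of single lists were named after their values were seen. Alternatives were RLE and upper-quartile scaling, DESeq2 1.42.0, limma voom (limma 3.58.1), 2 other filters, each library left out and a replicate block. For single values an exact permutation test (two-sided) could not go below 0.1 in a design of 3 and 3, so none was made.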

Additional observations from a re-analysis of the deposited data

How the results depend on the processing

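Under all 13 alternatives 0 of the 10 genes passed an adjusted p-value of 0.05, and their median log2 fold change ranged from 0.081 without control replicate 3 to 0.26 without control replicate 2. No alternative changed the direction of a gene except 2 left-out libraries: *Mef2* turned to −0.045 without control replicate 1 (range over left-out libraries −0.045 to 0.12) and *sns* to −0.11 without CycGΔP replicate 2 (range −0.11 to 0.31). The number of all tested genes called, 134, was 564 with DESeq2 and ranged from 11 to 78 with 1 library left out; the cause was not tested. Of the further myoblast and fusion genes, DESeq2 called 1 (*SPARC*) where edgeR called 0. Over all tested genes the deviations of same-numbered samples correlated at −0.12, −0.29 and −0.15, which cannot settle pairing for single genes. With the replicate number as a block 2 genes in all and 0 of the 10 were called by edgeR. Of the 10, 2 then had an unadjusted edgeR p-value under 0.05, beside 1396 of all 9408 tested genes. The 2 were *zfh1* (0.0135) and *mbc* (0.0478), with adjusted p-values of 0.241 and 0.332. *kirre*, the only gene of the 10 with an unadjusted p-value under 0.05 in the main fit, had 0.0661 with the block. No sample correlated best with its own number. Of the 10 genes, *nau* had the fewest reads, with 17 to 28 per library.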
